A study of Mus musculus with 4 samples.

Results

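Adrenomedullin and apelin are secreted vasodilator peptides, and their genes were followed together with the genes of their receptors in cultured mouse aortic endothelial cells. The members were taken from the table by gene symbol: Adm and Apln, which encode the peptides, Calcrl, the receptor protein of adrenomedullin, Ramp1, Ramp2 and Ramp3, its accessory proteins, and Aplnr, the receptor of apelin. All 7 had a row among the 27179 rows of the deposited table. The study compared 2 groups of cells of the line mAEC, described as murine aortic endothelial cells. Control cells were kept in normal medium, and conditioned medium cells received the supernatant of TNFα+CD68+ macrophages. Each group had 2 libraries, which the series calls biological replicates. The sources used here do not give the genotype of the line, whether it is 1 clone, how long the cells were exposed or at what dilution.

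Adrenomedullin signals through Calcrl, a G protein-coupled receptor that needs a RAMP protein to reach the cell surface and to bind its ligand. With RAMP2 or RAMP3 the pair forms an adrenomedullin receptor, and with RAMP1 it forms the receptor of CGRP, a related neuropeptide. The receptors act through Gs and cAMP, and in mice adrenomedullin, Calcrl and Ramp2 are each needed for normal blood and lymphatic vessels. Apelin acts on its own receptor, encoded by Aplnr, which couples to Gi and does not use a RAMP. Both peptide genes are known to be induced by hypoxia, and Apln marks the tip cells of sprouting vessels.

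The libraries held between 13815695 and 18005840 counts, so that 3 counts equalled 0.166 to 0.216 CPM, the deposited counts scaled to library size by TMM. Of the 10 endothelial markers, 9 were tested and summed to 6684 to 6685 CPM in control and 6704 to 6775 CPM in conditioned medium, with Cldn5, a tight junction gene, under 1 CPM in every library. Kdr (log2 fold change -0.16 ± 0.04, SE) and Emcn (-0.13 ± 0.04) of this list fell and Egfl7 (0.21 ± 0.04) rose. DESeq2 called Egfl7 but neither Kdr nor Emcn. The 6 lymphatic endothelial markers summed to 2361 to 2389 CPM in control and 2372 to 2432 CPM in conditioned medium, nearly all of it Lyve1 and Flt4, whereas Prox1, the defining transcription factor, and Mmrn1 and Ccl21a stayed under 1 CPM. Macrophage markers summed to 230 to 260 CPM in control and 253 to 260 CPM in conditioned medium, almost all of it Cd68, with Adgre1, C1qa and C1qb at 0 and 0 of the 3 tested called. Smooth muscle and pericyte markers summed to 15.2 to 15.3 CPM in control and 18.6 to 21.0 CPM in conditioned medium, with 5 of 9, Myh11 and Acta2 among them, under 1 CPM and Rgs5 at 0. Fibroblast markers summed to 25.7 to 28.0 and 32.6 to 32.9 CPM, with 5 of 6 under 1 CPM and Lum and Col1a2 at 0. Of the other lists the genes called, all higher, were Pdpn of the lymphatic list (log2 fold change 0.73 ± 0.13, SE), Notch3 of the smooth muscle and pericyte list (0.85 ± 0.17) and Pdgfra of the fibroblast list (0.28 ± 0.08). DESeq2 did not call Pdgfra (adjusted p = 0.217). The part of these markers in the results below was not tested.

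Both peptide genes and Ramp2 were lower in conditioned medium, whereas Calcrl and Ramp3 were higher. Ramp3 moved most, by 2.06-fold, and the other 4 moved by 1.16-fold to 1.23-fold. Ramp1 had no counts and Aplnr too few to pass the count filter. In the two-sided quasi-likelihood test of edgeR all 5 testable members passed an adjusted p of 0.05, 2 higher and 3 lower. Over all 13897 genes tested 16.8% passed, 8.53% higher and 8.23% lower. The CPM of the 2 groups did not overlap for any of the 5, as for 57.2% of all genes tested. A member enters the test only with enough counts, and well-counted genes pass more easily, so the share called among 5 genes is a description. In bulk RNA a lower value can mean fewer cells that make a transcript or less of it per cell, and these cannot be told apart.

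**Figure D1:**
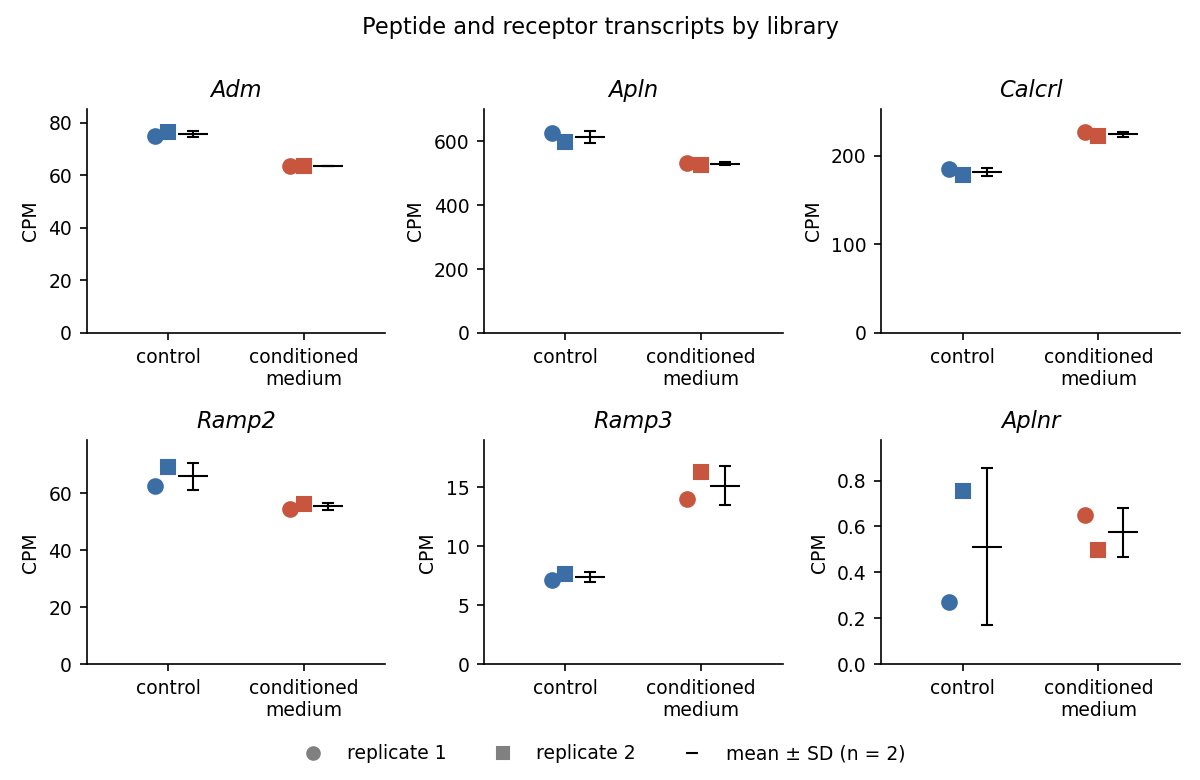
CPM of 6 members in each library, with a panel and an axis from 0 for each gene; circles are replicate 1, squares replicate 2, and bars the mean ± SD of 2 libraries. The groups separate for Adm, Apln, Calcrl, Ramp2 and Ramp3 and overlap for Aplnr; Ramp1, at 0 counts, is not drawn.

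Adm, the precursor gene of adrenomedullin, lies on chromosome 7, 110627657 to 110629820 in mm10. It held 1106 and 1118 counts in the control libraries and 879 and 1144 in the conditioned medium libraries, which was 74.9 and 76.5 against 63.4 and 63.4 CPM. Both conditioned medium libraries lay below both controls once depth was taken into account, since the second of them was the most deeply sequenced. The mean level was 75.7 ± 1.13 CPM in control and 63.4 ± 0.0101 CPM in conditioned medium (SD, n = 2). Adm thus fell, with a log2 fold change of -0.26 ± 0.05 (SE) and a 95% interval of -0.37 to -0.14 (edgeR adjusted p = 0.00256). The call was lost in DESeq2 (adjusted p = 0.0546), without conditioned medium replicate 1 (edgeR adjusted p = 0.0614) and without replicate 2 of that group (0.0866), at log2 fold changes of -0.26 each time.

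Apln, the apelin gene, lies on chromosome X, 48025146 to 48034853. It was the most abundant member, with 9253 and 8763 counts in control and 7386 and 9502 in conditioned medium, or 627 and 600 against 533 and 527 CPM. The groups did not overlap, and the controls lay farther apart than the conditioned medium libraries. The control mean was 613 ± 19.1 CPM and the conditioned medium mean 530 ± 4.42 CPM. Apln fell, at -0.21 ± 0.04 on the log2 scale with an interval of -0.30 to -0.12 (edgeR adjusted p = 0.00146). It was not called without conditioned medium replicate 1 (edgeR adjusted p = 0.0938) or without replicate 2 of that group (0.145).

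Calcrl, on chromosome 2, 84330626 to 84425405, encodes the receptor that adrenomedullin and CGRP share. It had 2736 and 2612 counts in control and 3135 and 4001 in conditioned medium, or 185 and 179 against 226 and 222 CPM, so both conditioned medium libraries lay above both controls. The control mean was 182 ± 4.63 CPM and the conditioned medium mean 224 ± 3.14 CPM. Calcrl rose, at 0.30 ± 0.04 on the log2 scale with an interval of 0.21 to 0.39 (edgeR adjusted p = 7.86e-05). It was called under all 14 alternatives, at 0.27 to 0.32.

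Ramp2, on chromosome 11, 101246334 to 101248250, encodes the accessory protein of the main vascular adrenomedullin receptor. Its libraries held 925 and 1012 counts in control against 757 and 1017, or 62.6 and 69.3 against 54.6 and 56.4 CPM. The groups did not overlap, but control replicate 1 stood about as near to the conditioned medium libraries as to control replicate 2. The control mean was 65.9 ± 4.67 CPM and the conditioned medium mean 55.5 ± 1.24 CPM. Ramp2 fell, at -0.25 ± 0.06 on the log2 scale with an interval of -0.38 to -0.12 (edgeR adjusted p = 0.00810). The call was lost under 4 of 14 alternatives, in DESeq2 (adjusted p = 0.110), without control replicate 2 (log2 fold change -0.17, edgeR adjusted p = 0.0557), and without conditioned medium replicate 1 (0.141) or replicate 2 (0.109). An annotated Ramp2 transcript runs into its neighbour Vps25, an endosomal sorting gene, with means of 47.2 ± 0.0383 and 45.9 ± 0.932 CPM (edgeR adjusted p = 0.740). The RefSeq exons of Ramp2 do not overlap it.

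Ramp3, on chromosome 11, 6658506 to 6677478, encodes the other accessory protein with which Calcrl binds adrenomedullin. It was read at 105 and 112 counts in control and 194 and 294 counts in conditioned medium. Exact Poisson 95% intervals, which cover counting error only, ran from 85.9 to 127 and 92.2 to 135 counts in control and from 168 to 223 and 261 to 330 in conditioned medium. In CPM these were 7.11 and 7.66 against 14 and 16.3, and the lower conditioned medium library was still well above the higher control. The control mean was 7.39 ± 0.391 CPM and the conditioned medium mean 15.1 ± 1.62 CPM. Ramp3 rose, at 1.04 ± 0.13 on the log2 scale with an interval of 0.77 to 1.32 (edgeR adjusted p = 1.20e-05). Of the 13897 genes tested 129 had a larger log2 fold change, and of the 2330 called 5.28% had a larger absolute one. Ramp3 was called under all 14 alternatives, at 0.92 to 1.14. Gm11978, a gene annotated on the opposite strand, shares exon bases with Ramp3, and the library kit does not mark strand. Gm11978 held 9 and 5 counts in control and 7 and 7 in conditioned medium.

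The remaining pair was at or near the limit of detection. Ramp1, on chromosome 1, 91179822 to 91225196, had 0 counts in all 4 libraries, for which the floor of 3 counts is at most 0.216 CPM and the exact Poisson 95% interval reaches 3.69 counts, or at most 0.266 CPM. Aplnr, on chromosome 2, 85136360 to 85139923, had 4 and 11 counts in control and 9 and 9 in conditioned medium, or 0.271 and 0.753 against 0.649 and 0.499 CPM. Both conditioned medium values lay between the controls, and the exact Poisson intervals of all 4 libraries overlapped, so no difference was detectable at this depth. The libraries thus held many counts of the ligand gene Apln and few of the receptor gene Aplnr.

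Upstream sequences of Adm, Apln, Ramp3 and Calcrl are given because the genes moved in different directions, Adm and Apln down and Ramp3 and Calcrl up. Each runs over the 250 bases before the start of a transcript in RefSeq (GRCm38.p6, the assembly of mm10), 5′ to 3′ on the strand of the gene. These starts differ from the ends of the RefSeq gene spans given above for Calcrl, where 139 of the 250 bases lie inside that span, and for Ramp3, where 27 do. The table used had such an entry for 5 of the 7 members. Capitals mark the core of the hypoxia response element, searched as ACGTG and GCGTG on both strands; it can overlap an E-box, CACGTG. The intervals are chr7:110627407-110627656 on the plus strand for Adm, chrX:48034854-48035103 on the minus strand for Apln, chr11:6658283-6658532 on the plus strand for Ramp3 and chr2:84425267-84425516 on the minus strand for Calcrl.
Adm: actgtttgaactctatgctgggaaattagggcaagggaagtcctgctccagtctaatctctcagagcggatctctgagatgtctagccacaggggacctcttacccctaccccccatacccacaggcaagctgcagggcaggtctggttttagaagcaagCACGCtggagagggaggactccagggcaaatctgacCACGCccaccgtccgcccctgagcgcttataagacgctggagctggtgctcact
Apln: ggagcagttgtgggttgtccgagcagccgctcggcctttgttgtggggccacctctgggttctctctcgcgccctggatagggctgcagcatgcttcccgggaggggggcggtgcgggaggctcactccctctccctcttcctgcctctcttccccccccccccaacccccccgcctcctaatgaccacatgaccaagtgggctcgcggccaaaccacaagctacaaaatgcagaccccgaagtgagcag
Ramp3: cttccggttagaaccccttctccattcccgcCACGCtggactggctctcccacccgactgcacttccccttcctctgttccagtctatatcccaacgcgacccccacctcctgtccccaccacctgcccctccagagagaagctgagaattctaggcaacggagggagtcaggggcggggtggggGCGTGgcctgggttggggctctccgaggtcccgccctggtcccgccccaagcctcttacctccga
Calcrl: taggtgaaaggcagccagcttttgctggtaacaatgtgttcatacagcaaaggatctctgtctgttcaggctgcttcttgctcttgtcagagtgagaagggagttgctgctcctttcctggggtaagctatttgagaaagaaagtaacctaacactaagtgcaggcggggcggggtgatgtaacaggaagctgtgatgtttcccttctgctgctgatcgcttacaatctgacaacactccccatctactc

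Adm, which fell, had 2 matches, both read as GCGTG on the opposite strand, at 90 to 86 and 54 to 50 bases before the start. Ramp3, which rose, also had 2, at 219 to 215 and 65 to 61 bases. Apln and Calcrl had 0 in this window. Among all 32851 promoter entries of the same length 38.6% held a match, and among the 20 entries of the HIF-inducible comparison genes described below 80.0% did. The median G and C content of those 20 entries was 65.2%. The G and C content was 56.8% for Adm, 65.2% for Apln, 65.2% for Ramp3 and 48.4% for Calcrl, against a median of 52.4% over all entries. The cAMP response element, searched as TGACGTCA, was in 0 of the 5 members' windows and in 1.5% of all entries. A match describes the letters of the window and says nothing of whether a factor binds there.

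Levels can be compared between genes only per length, and are given here as CPM per kilobase of RefSeq exons. Apln was highest, at 195 ± 6.06 in control and 168 ± 1.4 in conditioned medium, and only 1.47% of the 15926 genes with counts and a length had a higher mean. Ramp2 (56.0 ± 3.97) and Adm (54.5 ± 0.816) followed in control and did not differ beyond their spread, with Calcrl below them at 37.3 ± 0.949. In conditioned medium Ramp2 (47.1 ± 1.05) lay above Adm (45.6 ± 0.00725) in both libraries, at 46.4 and 47.8 against 45.6 and 45.6. The order of Ramp2 and Adm was not tested, and the SD of 2 nearly equal Adm values understates counting error. Calcrl (45.9 ± 0.643) lay above Adm in replicate 1 and below it in replicate 2. It lay below Ramp2 in both, at 46.33 and 45.4 against 46.36 and 47.8, and its place was not tested. Ramp3 stood at 5.99 ± 0.317 and 12.3 ± 1.32, and Aplnr at 0.138 ± 0.0921 and 0.155 ± 0.0288. The place of Ramp2 in this order depends on its length: over all annotated exons, a length chosen after seeing the data, Ramp2 was at 19.98 ± 1.42 in control and 16.8 ± 0.375 in conditioned medium, below Calcrl (37.3 and 45.9) and Adm (46.8 and 39.2). The ratios to Ramp2 given next shift by a constant factor with that length, and their relative difference between the groups does not.

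**Figure D2:**
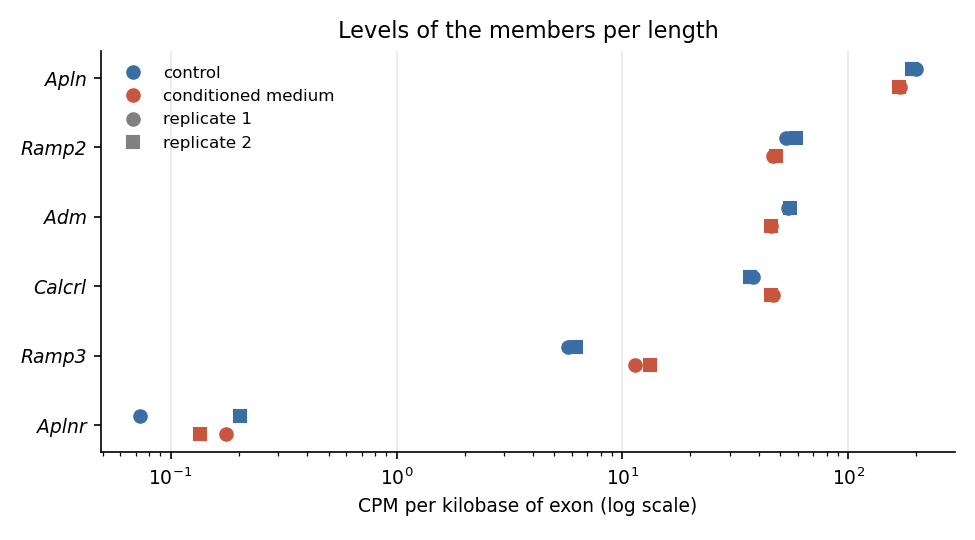
Level of each member with counts, in CPM per kilobase of exon on a log axis, for every library; colours mark the groups and shapes the replicates. Apln lies highest in all libraries, Adm, Ramp2 and Calcrl lie between 45.4 and 47.8 in conditioned medium, and Aplnr lies below 1.

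The make-up of the adrenomedullin receptor transcripts differed between the groups. Of the summed Ramp level per kilobase, Ramp3 made up 9.78% and 9.56% in the control libraries and 19.7% and 21.6% in the conditioned medium libraries, the rest being Ramp2. The ratio of Ramp3 to Ramp2 within a library, which no scaling between libraries can alter, was 0.108 and 0.106 in control against 0.245 and 0.276, a 2.43-fold difference of the means. The ratio of Ramp2 to Calcrl was 1.4 and 1.61 in control and 1.0 and 1.05 in conditioned medium, and that of Adm to Calcrl 1.42 and 1.5 against 0.985 and 1.0. Adm and Ramp2 kept nearly the same ratio, 1.01 and 0.936 against 0.984 and 0.953, as did Apln and Adm, 3.69 and 3.46 against 3.71 and 3.67, and in both of these the groups overlapped. An exact permutation test of 2 libraries against 2, two-sided, cannot give a p below 0.333, so these ratios are given as values. The share depends on the length given to Ramp2: with all annotated exons, a setting chosen after seeing the data, the mean Ramp2 share was 78.9% in control and 60.6% in conditioned medium, against 90.3% and 79.3%.

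**Figure D3:**
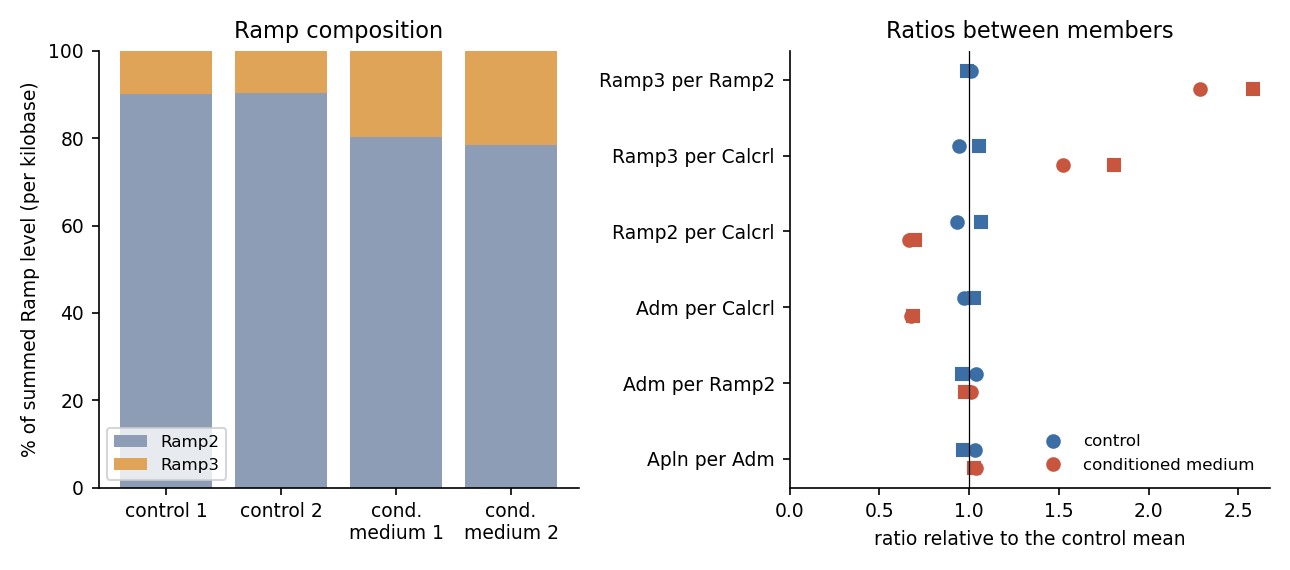
Left, the share of Ramp2 and Ramp3 in the summed Ramp level per kilobase in each library, in percent; right, ratios between members in each library relative to the control mean, with circles for replicate 1 and squares for replicate 2. The Ramp3 share is 9.56% to 9.78% in control and 19.7% to 21.6% in conditioned medium, and Adm per Ramp2 stays near 1.

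The other genes of the 2 peptide systems were described from lists drawn up with earlier results of these data known. The list counts here and below are a description, to be read beside the share over all genes tested. Of these 16.8% were called, 8.53% higher and 8.23% lower. Of 18 related ligands, receptors and peptide-handling enzymes, 11 were tested, of which 2 rose and 0 fell, with a median log2 fold change of 0.07 against 0.00037 over all genes tested. Furin, a protease that cleaves precursor proteins, rose from 120 ± 6.66 to 164 ± 0.334 CPM (0.45 ± 0.05 on the log2 scale, edgeR adjusted p = 2.40e-06). Prcp, a carboxypeptidase that trims the end of peptides such as apelin, rose from 67.5 ± 3.74 to 90.3 ± 1.63 CPM (0.42 ± 0.06, edgeR adjusted p = 2.26e-05). Ackr3, a scavenging receptor that also takes up adrenomedullin, was not called, with means of 119 ± 2.21 and 127 ± 1.56 CPM (edgeR adjusted p = 0.232). Pam, the enzyme that amidates adrenomedullin, was not called either, with 218 ± 9.80 and 223 ± 8.36 CPM (edgeR adjusted p = 0.734). The ligand genes Adm2 and Iapp had 0 counts in all libraries, and Apela, the second ligand of the apelin receptor, had 1 count in all. Without either control library 4 genes of this list were called.

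Of 28 tested genes of Gs and cAMP signalling and receptor desensitisation, 2 rose, 6 fell and 20 were not called, with a median of -0.02. Adcy4, an adenylyl cyclase, rose from 89.7 ± 5.95 to 115 ± 1.42 CPM (0.36 ± 0.05, edgeR adjusted p = 7.86e-05). Prkacb, a catalytic subunit of protein kinase A, fell from 347 ± 12.7 to 280 ± 1.87 CPM (-0.31 ± 0.04, edgeR adjusted p = 3.89e-05), and Rap1a, a small GTPase downstream of cAMP, fell from 103 ± 5.26 to 78.0 ± 0.482 CPM (-0.40 ± 0.05, edgeR adjusted p = 2.50e-05). Arrb1, a β-arrestin that binds activated receptors, was the other gene that rose, from 399 ± 0.530 to 478 ± 4.61 CPM (edgeR adjusted p = 1.56e-04). DESeq2 called 5 of this list, and 4 were called when either conditioned medium library was left out.

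HIF-inducible genes were compared because both peptide genes are known as such. Of 16 tested, 12 rose, 0 fell and 4 were not called, and all 16 log2 fold changes were above 0, from 0.04 to 0.86 with a median of 0.38. Pfkfb4, a regulator of glycolysis, rose from 5.58 ± 0.344 to 10.1 ± 1.19 CPM (0.86 ± 0.15, edgeR adjusted p = 4.95e-04), Ero1a, an oxidase of the endoplasmic reticulum, by 0.70 ± 0.07 and Slc2a1, the glucose transporter, by 0.63 ± 0.05. Vegfa, the vascular growth factor, rose from 35.0 ± 3.45 to 52.5 ± 0.734 CPM (0.58 ± 0.07, edgeR adjusted p = 8.99e-06). Adm and Apln, at -0.26 and -0.21, lay below all 16. The difference between the peptide genes and this list was not tested, and without conditioned medium replicate 2 the list had 5 calls, with Pfkfb4 not among them (edgeR adjusted p = 0.0636). DESeq2 called 8 of this list. Ero1a was not called with a robust estimate of the spread (adjusted p = 0.112).

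Tip cell and sprouting genes, the group in which Apln is often placed, divided: of 16 tested, 3 rose and 5 fell, with a median of -0.07. Angpt2, a destabilising ligand of the Tie receptors, fell from 148 ± 2.92 to 83.4 ± 6.64 CPM (-0.83 ± 0.05, edgeR adjusted p = 3.00e-09). Unc5b, a guidance receptor, rose by 0.42 ± 0.06 and Mcam, an adhesion molecule, by 0.39 ± 0.06. The number called was 5 in DESeq2, 5 without conditioned medium replicate 1 and 4 without replicate 2 of that group.

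Among 35 other vasoactive peptides and receptors 10 were tested and 15 had 0 counts in all libraries. Edn1, the gene of the vasoconstrictor endothelin, fell from 12.2 ± 2.21 to 3.86 ± 0.0508 CPM (-1.66 ± 0.17, edgeR adjusted p = 8.72e-07). Nos3, which makes the vasodilator nitric oxide, rose from 456 ± 19.2 to 580 ± 4.35 CPM (0.35 ± 0.04, edgeR adjusted p = 1.13e-05). Npy1r, a neuropeptide Y receptor, was called higher on 3 and 4 control counts against 17 and 16 (2.08 ± 0.53, edgeR adjusted p = 0.00938). It lost the call without control replicate 1 (edgeR adjusted p = 0.0834) and without either conditioned medium library (0.136 and 0.0684), and DESeq2 gave it no adjusted p.

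**Figure D4:**
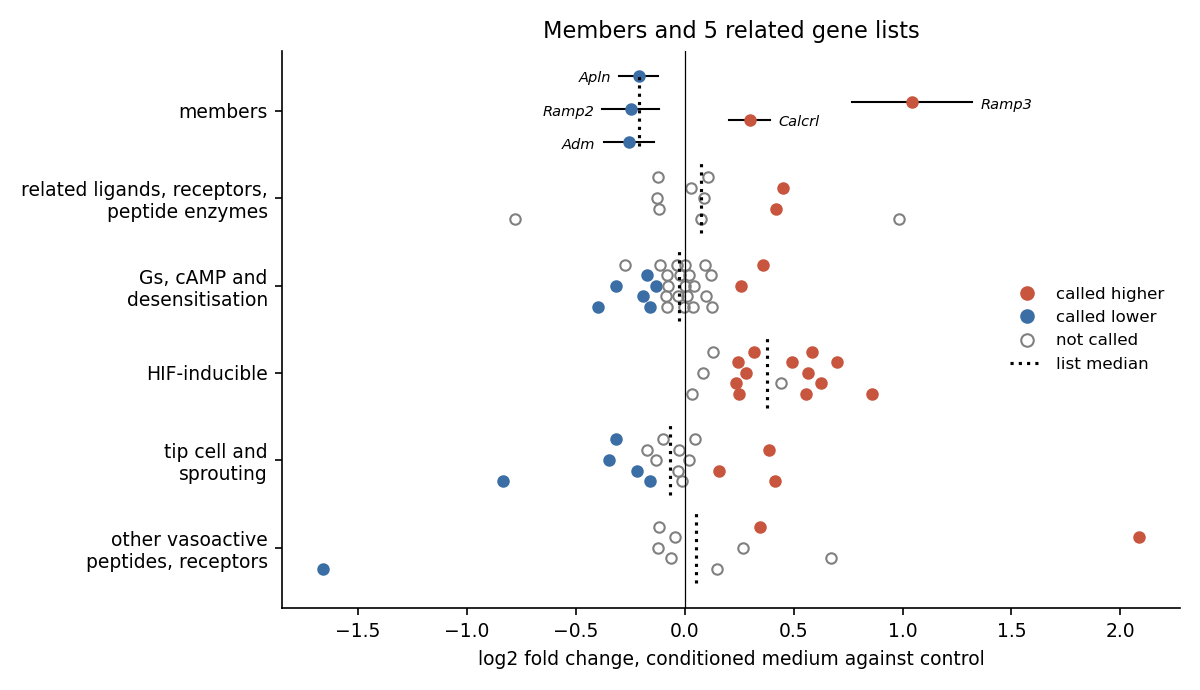
Log2 fold change of each tested gene, conditioned medium against control, for the members and for 5 related lists; filled points were called, open ones were not, dotted lines are list medians and bars on the members are 95% intervals. Adm, Apln and Ramp2 lie left of 0, while the 16 HIF-inducible genes all lie right of it.

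The genes whose values over the 4 libraries lay closest to each member were found by the Euclidean distance of log2 CPM centred on the control mean, among 10678 others that had a symbol and averaged 5 CPM or more. The closest to Adm were Bhlhb9 (0.0103) and Tuba1c (0.0146), and to Ramp2 Ap1s2 (0.00922) and Zdhhc2 (0.0206). Calcrl was closest to Ndrg4 (0.00870) and Jup (0.0165), and Apln to Zfp763 (0.0105) and Tatdn2 (0.0125). Neither Zfp763 nor Tatdn2 was itself called (edgeR adjusted p = 0.274 and 0.103). Ramp3 had no neighbour as close, with Fcna at 0.0753 and Dgat2 at 0.105. With 4 libraries and so many candidates such closeness is a description of these values.

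**Figure D5:**
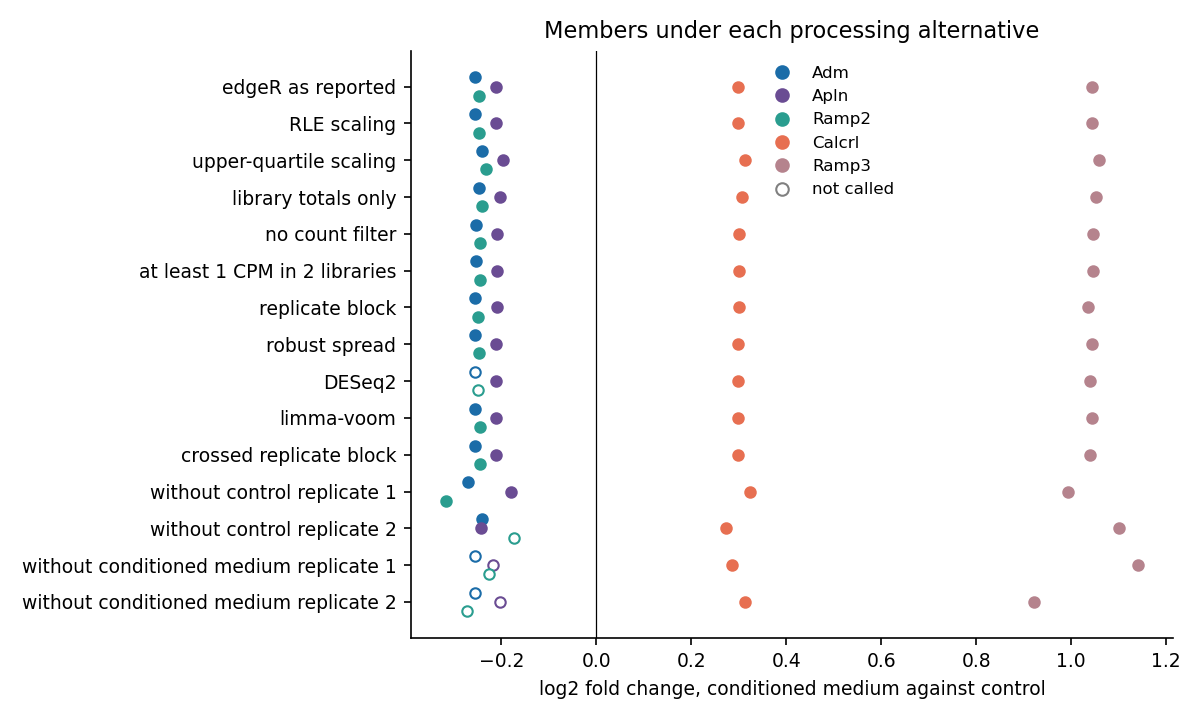
Log2 fold change of the 5 tested members under the reported fit and 14 alternatives; filled points were called at an adjusted p under 0.05, open points were not. Calcrl and Ramp3 are filled throughout, whereas Adm, Apln and Ramp2 are open without either conditioned medium library.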

How the data were processed

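Total RNA of 4 libraries was sequenced after preparation with a TruSeq RNA kit, per the labels' protocols. The authors deposited raw counts per gene, in rows named by Entrez identifier; STAR 2.5.2b, featureCounts, Subread 1.4.6-p1 and mm10 are named in the submitters' processing notes. The sources used here do not give their settings or how shared reads were counted. Symbols came from RefSeq GRCm38.p6 (25275 rows matched, 1904 did not) and exon lengths from GENCODE transcripts linked to RefSeq.

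The raw counts were analysed in R 4.3.3 with edgeR 4.0.16: filterByExpr (minimum count 10, total 15), TMM, and a quasi-likelihood test of conditioned medium against control without a replicate block, on all 13897 genes that passed, with Benjamini-Hochberg adjustment. Calls needed an adjusted p under 0.05. An SE is the size of the log2 value divided by the root of F, and the fit had 2 residual degrees of freedom for each gene. The printed edgeR intervals and p-values rest on more than these 2, because the quasi-likelihood test also borrows spread from the other genes. With 2 degrees of freedom alone the intervals would be wider. Alternatives used DESeq2 1.42.0, limma 3.58.1 (voom), other scalings and filters, a replicate block, a robust spread and each library left out. The procedure was also run on counts simulated from the fitted trend of spread with level, with the same spread in both groups. Such counts cannot show how it behaves where the pairs differ in spread, as they did here. The sources used here name no culture or sequencing batch.

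The members, the lists and the tests were chosen with earlier results of these data known. Named genes are the members, up to 3 called genes from every list, those changed most on the log2 scale, and the 2 closest genes of each called member (means of at least 5 CPM). Vegfa, Arrb1, Ackr3, Gpr182, Pam, Adm2, Iapp, Apela, Vps25, Gm11978 and the cell type markers were named after their values were seen.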

Additional observations from a re-analysis of the deposited data

How the results depend on the processing

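No direction of a member changed under the 14 alternatives, and Calcrl and Ramp3 were called in all of them. DESeq2 gave -0.26 for Adm and -0.25 for Ramp2, neither called. It called 3 of the 5 members, 5 Gs and cAMP genes, 8 HIF-inducible genes and 5 tip cell genes. In all it called 918 genes against 2330. Leaving out each library in turn gave log2 fold changes of -0.27 to -0.24 for Adm, -0.32 to -0.17 for Ramp2 and -0.24 to -0.18 for Apln. Over the same fits 2 to 5 members, 2 to 4 related ligand, receptor and enzyme genes, 4 to 9 Gs and cAMP genes, 5 to 13 HIF-inducible genes, 4 to 11 tip cell genes and 569 to 3107 genes in all were called; the fewest calls came without a conditioned medium library, when the spread rests on the control pair alone. Gpr182 ranged from -0.015, without control replicate 1, to 0.17, and Pam from -0.018, without control replicate 2, to 0.074, with -0.0080 without conditioned medium replicate 1; neither was called under any of the 14 alternatives.

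The mean Ramp2 share was 90.3% in control and 79.3% in conditioned medium. Without division by length it was 89.9% in control, and the 2 conditioned medium libraries had 79.6% and 77.6%. With all annotated exons it was 78.9% and 60.6%, and with the longest transcript 88.9% and 76.8%; both lengths were chosen after seeing the data.

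Deviations of same-numbered libraries from their group means correlated at -0.12 across the 4326 genes that averaged 50 CPM or more. With 2 libraries a group this value rests on the contrast within each group. It cannot show whether the replicate numbers pair the libraries. With the replicate block 2671 genes and 5 members were called, and with the crossed replicate block, added after seeing the data, 2753 and 5. The medians of all genes differed by under 0.02 on the log2 scale between scalings. Depth limits Ramp1 and Aplnr, which fell under the count filter, and 2 libraries a group limit each small change. The control pair also varied more than the conditioned medium pair. Over those 4326 genes the SD of the log2 ratio within the pair was 0.103 in control and 0.0654 in conditioned medium. The reported fit pools both pairs into the same spread for each gene.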
